A study of Homo sapiens with 6 samples.

Results

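The PARP and tankyrase family was followed in HCCC9810 cells treated with ILL. The 10 members were taken by gene symbol from the 19470 genes of the count table: PARP1, PARP2 and PARP3, which act at DNA breaks, PARP4 of the vault particle, PARP9, PARP10, PARP12 and PARP14, which are known as interferon-responsive, and the tankyrases TNKS and TNKS2. HCCC9810 is an established human CCA cell line, used here as wild type cells. The ILL group received 20 μM of the sesquiterpenoid lactone isolinderalactone for 24 h and the control group received its vehicle (DMSO) for 24 h, with 3 RNA-seq libraries in each group. The labels do not say whether libraries of a group came from separate cultures, so p-values measure the spread between these libraries, which may be technical, and all libraries come from 1 cell line.

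PARPs transfer ADP-ribose from NAD+ onto proteins and nucleic acids. PARP1 and PARP2 build long poly(ADP-ribose) chains at nicked DNA, which recruit XRCC1 and its ligase and polymerase partners. PARP inhibitors, used in cancers with repair defects, bind the catalytic NAD+ site of these enzymes. Many of the other members attach a single ADP-ribose unit, and several of these are part of the antiviral response to interferon. Tankyrases modify AXIN proteins and telomere proteins, and the modified AXIN is then ubiquitylated by RNF146, which makes them positive regulators of Wnt signaling.

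In GENCODE release 29 on GRCh38 the members are spread over 7 chromosomes. PARP1 is on chromosome 1 from 226360691 to 226408079, PARP2 on chromosome 14 from 20343582 to 20357905 and PARP3 on chromosome 3 from 51942345 to 51948867. PARP9 (122527924 to 122564577) and PARP14 (122680618 to 122730840) also lie on chromosome 3, and PARP12 is on chromosome 7 from 140023744 to 140063721. PARP10 is on chromosome 8 from 143977153 to 144012772, as is TNKS from 9555914 to 9782346, with TNKS2 on chromosome 10 from 91798312 to 91865276 and PARP4 on chromosome 13 from 24420926 to 24512810.

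Library totals ranged from 34282764 to 37758569 counts, and no pair of replicates was as alike as counting error alone would make it (chi-square of 4.74 to 10.4 for each degree of freedom). The 10 most abundant genes took 5.20% to 5.45% of counts in control libraries and 8.12% to 8.25% in ILL libraries. Of 7 biliary epithelial markers, 6 were above 1 FPKM (reads scaled for gene length and library total), with summed levels of 5027 to 5148 FPKM in controls and 4381 to 4613 with ILL. Leukocyte and endothelial markers were below 1 FPKM (0 of 4 in each list above it), fibroblast markers reached it only in COL1A1 of 4 genes, and hepatocyte markers in ALB and APOA1 of 4 genes. The summed leukocyte level was at most 0.476 FPKM in any library.

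With ILL, 8 of the 10 members rose and 2 fell, PARP1 and PARP2. All 10 passed the filter on low counts and all 10 were called at an adjusted p under 0.05 in edgeR's quasi-likelihood test, against 73.1% of the 13066 genes tested. Higher calls made up 36.2% and lower calls 36.9% of all tested genes. Changes of more than 2-fold were found in 6 members, 4 higher and 2 lower, while 23.9% of all tested genes were called and changed by that much, 12.5% of them up and 11.4% down as shares of all tested genes. That split was 1635 higher and 1485 lower, against 909 and 1247 with limma on log2(FPKM + 0.1) and 668 and 923 on log2(FPKM + 1), both filtered. In edgeR with library size as the only scaling it was 1488 higher and 1649 lower. In all 10 members the ranges of the groups did not overlap, which was also seen in 75.4% of all tested genes. The median log2 fold change was 0.63 over the members and -0.0012 over all tested genes. These are levels per total RNA, so a change in RNA per cell cannot be told apart from a change in the make-up of the culture.

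**Figure D1:**
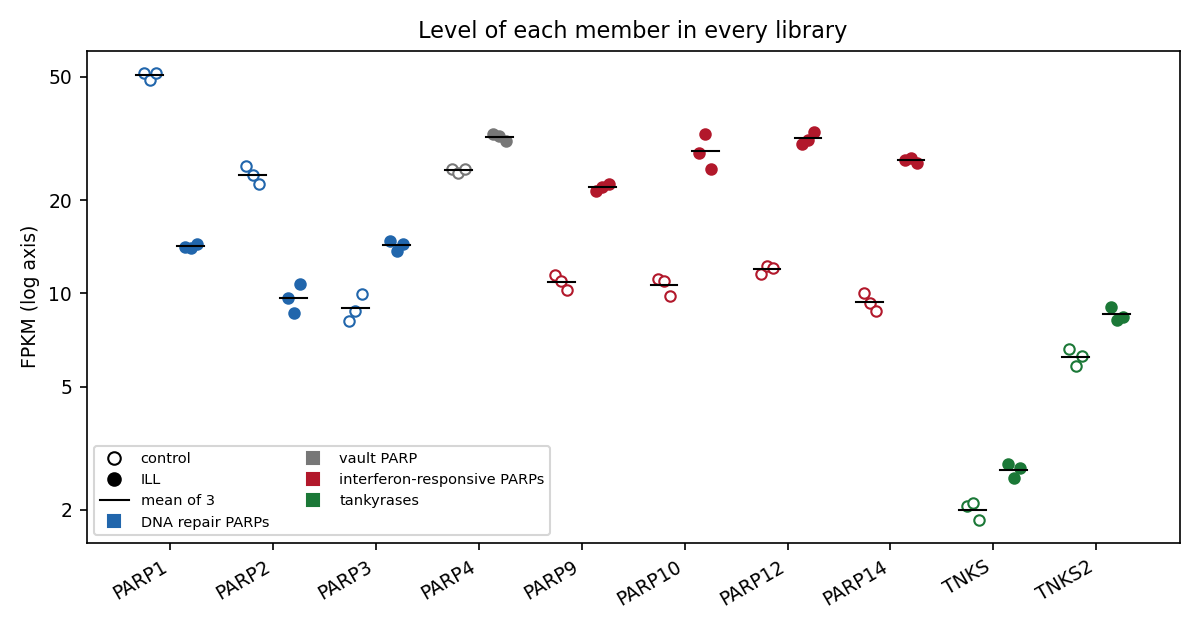
Level of the 10 members in FPKM (log axis) in each library, with open points for control, filled points for ILL and a bar at the mean of 3. PARP1 dropped from 50.6 to 14.2 FPKM, while the red interferon-responsive genes moved from 9.38 to 12.0 FPKM in controls to 22.0 to 31.6 FPKM with ILL.

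Per length, PARP1 was the most abundant member in control cells at 50.6 ± 1.42 FPKM (SD, n = 3). PARP4 (25.0 ± 0.436 FPKM) and PARP2 (24.2 ± 1.59 FPKM) followed, with libraries that overlapped between these genes. PARP12 stood at 12.0 ± 0.407 FPKM, and PARP9 (10.9 ± 0.631), PARP10 (10.6 ± 0.755), PARP14 (9.38 ± 0.606) and PARP3 (8.96 ± 0.922 FPKM) formed a run in which each neighbor in the order overlapped the next. TNKS2 (6.25 ± 0.389 FPKM) and TNKS (2.002 ± 0.133 FPKM) were the least abundant. Levels and shares that compare genes depend on the lengths implied by the FPKM, such as 8167 bases for PARP9 and 3476 for PARP10.

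With ILL the order was different. PARP4 (32.0 ± 0.758 FPKM, SD, n = 3), PARP12 (31.6 ± 1.39), PARP10 (28.8 ± 3.75) and PARP14 (26.9 ± 0.548 FPKM) led, and the range of each overlapped that of the next. PARP9 followed at 22.0 ± 0.601 FPKM. PARP3 (14.3 ± 0.561 FPKM) and PARP1 (14.2 ± 0.220 FPKM) overlapped, as did PARP2 (9.69 ± 1.05) and TNKS2 (8.55 ± 0.435 FPKM), and TNKS stayed last at 2.70 ± 0.136 FPKM. PARP1 thus moved from the highest place to a level that its libraries shared with PARP3.

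**Figure D2:**
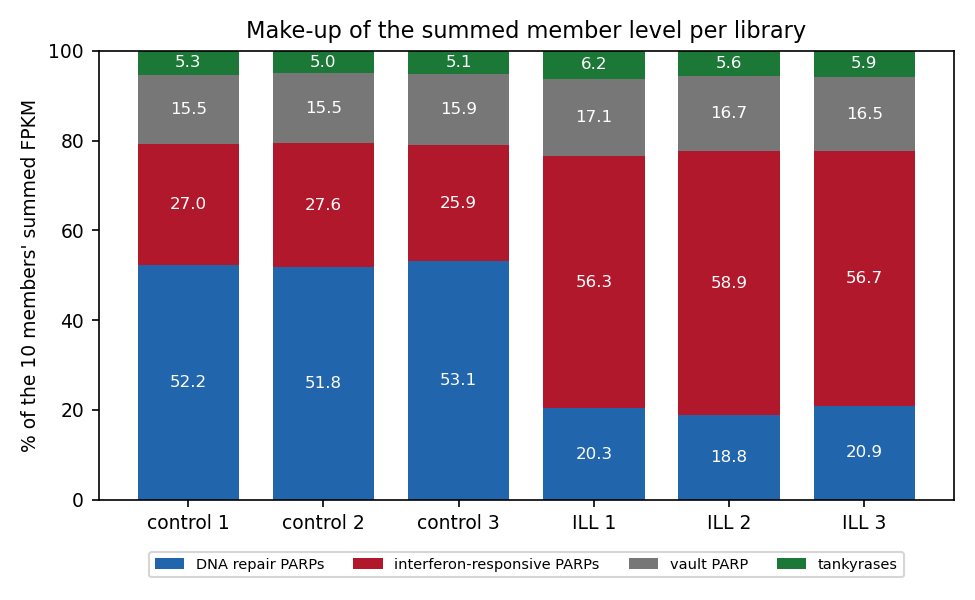
Share (%) of the summed FPKM of the 10 members held by the DNA repair, interferon-responsive, vault and tankyrase genes in each library, stacked to 100%. The blue DNA repair share was 51.8% to 53.1% in controls and 18.8% to 20.9% with ILL, and the red interferon-responsive share was 25.9% to 27.6% and 56.3% to 58.9%.

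The summed level of the 10 members was 159.8 ± 3.13 FPKM in controls and 191 ± 1.85 FPKM with ILL (SD, n = 3). The 3 DNA repair genes held 52.4% ± 0.645 of it in controls and 20.0% ± 1.08 with ILL. The 4 interferon-responsive genes held 26.8% ± 0.903 and 57.3% ± 1.36. PARP1 alone went from 31.6% to 7.44%, and the plot of shares shows that the libraries of the groups did not overlap for either set. The vault gene PARP4 held 15.6% and 16.8%, and the tankyrases 5.16% and 5.90%. Within the DNA repair set PARP3 rose from 8.96 to 14.3 FPKM, while PARP1 and PARP2 fell.

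Among the DNA repair genes, PARP1 and PARP2 fell and PARP3 rose. PARP1, the main sensor of single-strand nicks, had 199, 189.9 and 201 CPM (counts scaled to a common library total) in controls 1 to 3 and 57.4, 57.3 and 58.7 CPM in ILL 1 to 3. All ILL libraries were far below all controls. The mean was 196 ± 5.75 CPM in controls and 57.8 ± 0.817 CPM with ILL (SD, n = 3), a 3.40-fold decrease (log2 fold change -1.76, SE 0.05, adjusted p = 3.37e-19 in edgeR's quasi-likelihood test). This log2 fold change was at percentile 4.42 of all tested genes.

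PARP2, which acts with PARP1 at strand breaks, had 60.7, 56.8 and 53.8 CPM in controls and 23.9, 21.6 and 26.6 CPM with ILL. Its groups did not overlap, and the decrease was 2.38-fold (log2 fold change -1.25, SE 0.08, adjusted p = 4.26e-13 in edgeR's quasi-likelihood test). PARP3, which acts at double-strand breaks, went the other way, from 20.0, 21.7 and 24.7 CPM to 38.04, 35.7 and 37.5 CPM. It rose 1.67-fold (log2 fold change 0.74, SE 0.08, adjusted p = 1.52e-08 in edgeR's quasi-likelihood test). Antisense genes overlap PARP2 by 104 and 2656 bases, and their reads could be shared if strand was not used in counting. The ratio of PARP2 to PARP3 in FPKM, chosen after these values were seen, was 3.17, 2.74 and 2.27 in controls and 0.656, 0.632 and 0.743 with ILL.

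The promoters of PARP1 and PARP2 are shown because both hold an E2F-type sequence, TTCCCGC, which was also searched on the reverse strand. Capitals mark it in 120 bases, 110 before and 10 from the RefSeq start site on GRCh38.p14, printed 5′ to 3′ on the gene's strand. PARP1 is at chr1:226408084-226408203 (minus strand), with the motif beginning 18 bases before the start, and PARP2 is at chr14:20343525-20343644 (plus strand), with the motif beginning 60 bases before the start.
PARP1: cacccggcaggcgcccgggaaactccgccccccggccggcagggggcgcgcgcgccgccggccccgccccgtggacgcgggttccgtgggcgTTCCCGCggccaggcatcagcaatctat
PARP2: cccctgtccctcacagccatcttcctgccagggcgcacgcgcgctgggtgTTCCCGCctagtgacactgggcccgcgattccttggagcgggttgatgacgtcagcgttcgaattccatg

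Promoters of 7 members were matched in the RefSeq table, which spans 250 bases before to 50 after each start, and PARP1, PARP2 and PARP12 held TTCCCGC. PARP4, PARP10 and TNKS were not matched. This motif was in 6.55% of all 35116 promoters, and in 12.5% of the 10482 tested genes with a promoter. It was also in 4 of 16 interferon-stimulated genes with a promoter (MX1, OAS3, RSAD2 and IFIH1), and in 0 of 7 genes of the rest of the family. The motif was thus not particular to members that fell. The match is a description of the sequence and no test of binding.

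Genes that work beside PARP1 and PARP2 in break repair mostly fell as well. Of 10 single-strand break and base excision partners, 9 were lower and 1 was higher, against 36.9% lower and 36.2% higher over all tested genes. Their median log2 fold change was -0.70 against -0.0012 over all tested genes. The lowest were FEN1, a flap endonuclease (log2 fold change -2.58, SE 0.08), PCNA, the sliding clamp (-2.41, SE 0.05), and LIG1, the replicative ligase (-1.996, SE 0.06). XRCC1, the scaffold that binds poly(ADP-ribose), fell from 35.1 ± 2.69 to 26.2 ± 2.43 CPM (SD, n = 3, log2 fold change -0.42, SE 0.08, adjusted p = 7.14e-05 in edgeR's quasi-likelihood test). POLB, the gap-filling polymerase, rose by 0.40 on the log2 scale.

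FEN1, PCNA and LIG1 are also genes of DNA replication. All 8 proliferation genes were lower, against 36.9% of all tested genes, with a median log2 fold change of -3.16. They ran from TOP2A (-3.55), TYMS (-3.33) and CCNA2 (-3.29) to RRM2 (-3.07), MCM2 (-2.47) and E2F1 (-2.15). E2F1 itself dropped from 130 ± 5.48 to 29.2 ± 2.99 CPM (SD, n = 3). The part of this change in the levels of PARP1 and PARP2 was not tested.

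Of 9 co-factors and erasers of ADP-ribose, 3 were higher, 3 lower and 3 not called, near the shares over all tested genes (36.2% higher and 36.9% lower), with a median log2 fold change of -0.14. The number called higher was 0 to 3 across the alternatives. HPF1, which directs PARP1 and PARP2 to serine residues, fell from 11.5 ± 1.91 to 7.93 ± 0.564 CPM (SD, n = 3, log2 fold change -0.53, SE 0.14, adjusted p = 0.00109 in edgeR's quasi-likelihood test). CHD1L, a chromatin remodeler recruited by poly(ADP-ribose), fell by 0.73, and OARD1, which removes ADP-ribose from acidic residues, by 0.35 on the log2 scale. PARG, the main poly(ADP-ribose) glycohydrolase, was not called, at 27.4 ± 1.40 and 24.6 ± 1.28 CPM (log2 fold change -0.16, SE 0.08, adjusted p = 0.0772 in edgeR's quasi-likelihood test). The serine hydrolase ADPRS (0.19), the arginine hydrolase ADPRH (0.92) and the repair factor APLF (1.34, at 0.669 CPM in controls and 1.70 CPM with ILL) were higher, as log2 fold changes.

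Genes for NAD+ synthesis, the substrate supply of all active members, showed 4 higher, 0 lower and 3 not called of 7 tested (QPRT and NMRK2 did not pass the filter on low counts), with a median log2 fold change of 0.41. The shares over all tested genes were 36.2% higher and 36.9% lower. NAMPT, the rate-limiting salvage enzyme, rose from 289 ± 13.0 to 408 ± 22.9 CPM (SD, n = 3, log2 fold change 0.50, SE 0.05, adjusted p = 9e-09 in edgeR's quasi-likelihood test). NMRK1 (1.31), NADSYN1 (0.41) and NAPRT (0.27) were also higher, as log2 fold changes.

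**Figure D3:**
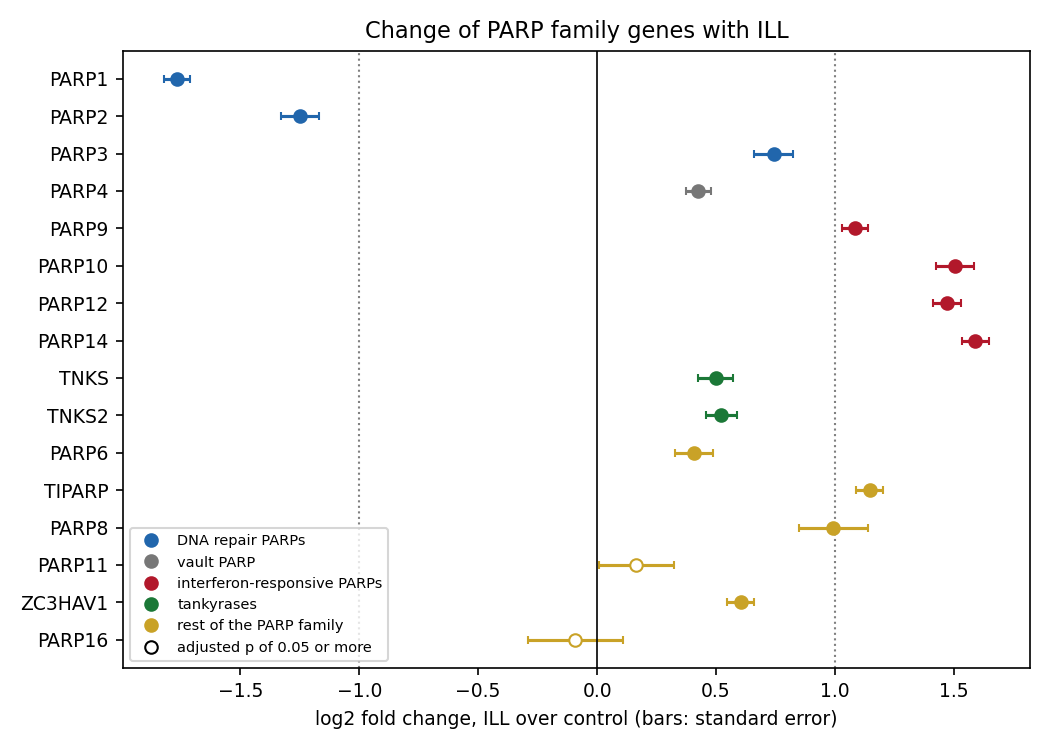
Log2 fold change of ILL over control for 16 PARP family genes, with bars of 1 standard error, open symbols for genes not called and dotted lines at 2-fold. PARP1 (-1.76) and PARP2 (-1.25) lie left of 0, and PARP9, PARP10, PARP12 and PARP14 lie between 1.08 and 1.59.

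All 4 interferon-responsive members rose more than 2-fold. PARP14, a macrodomain protein that attaches single ADP-ribose units, had 80.3, 75.0 and 71.3 CPM in controls and 227.01, 233 and 222 CPM with ILL. It showed the largest increase among the members, 3.01-fold (log2 fold change 1.59, SE 0.06, adjusted p = 4.55e-18 in edgeR's quasi-likelihood test), at percentile 94.0 of all tested genes. PARP12, a zinc finger mono-ADP-ribosyltransferase, had 46.0, 49.3 and 48.7 CPM and then 127, 133 and 139.55 CPM. Its libraries were well apart, and the increase was 2.77-fold (log2 fold change 1.47, SE 0.06, adjusted p = 6.11e-17 in edgeR's quasi-likelihood test).

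PARP10, another mono-ADP-ribosyltransferase, had 37.7, 37.3 and 33.3 CPM in controls and 100.1, 117 and 90.02 CPM with ILL. ILL 2 was the highest and ILL 3 the lowest of the treated libraries, and this gene had the largest SD with ILL, 13.8 CPM. It rose 2.84-fold (log2 fold change 1.504, SE 0.08, adjusted p = 1.38e-14 in edgeR's quasi-likelihood test). The gene overlaps GRINA by 3358 bases and SPATC1 by 359 bases on the opposite strand, and the sources used here do not say whether counting used strand, so reads of these genes could not be told apart there.

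PARP9, a macrodomain protein that works with the E3 ligase DTX3L, had 91.3, 87.6 and 82.1 CPM in controls and 178, 186 and 189 CPM with ILL. This was a 2.12-fold increase, the smallest of the 4 (log2 fold change 1.08, SE 0.06, adjusted p = 8.87e-15 in edgeR's quasi-likelihood test). On log2(FPKM + 1) with limma its log2 fold change was 0.95, under the 2-fold threshold. DTX3L rose from 91.1 ± 5.80 to 165 ± 5.64 CPM (SD, n = 3, log2 fold change 0.85, SE 0.06, adjusted p = 1.62e-12 in edgeR's quasi-likelihood test). The ratio of PARP9 to DTX3L in FPKM was 0.676, 0.662 and 0.686 in controls and 0.770, 0.768 and 0.835 with ILL. These ratios did not overlap, with a difference of 0.23 on the log2 scale (two-sided exact permutation test over 3 against 3 libraries, p = 0.1, the smallest this design allows). The genes lie head to head and overlap by 340 bases on opposite strands, where reads could not be assigned without strand.

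The promoters of PARP9, PARP14 and PARP12 are shown because they hold the interferon-stimulated response element (ISRE), searched on both strands as GAAANNGAAA. Capitals mark this motif, which reads as its reverse complement in PARP9 and PARP12, and in PARP12 also the E2F-type TTCCCGC that follows it. The windows are 110 bases before and 10 from the RefSeq start on GRCh38.p14, 5′ to 3′ on the gene's strand, at chr3:122564291-122564410 (PARP9, minus strand), chr3:122680729-122680848 (PARP14, plus strand) and chr7:140062942-140063061 (PARP12, minus strand).
PARP9: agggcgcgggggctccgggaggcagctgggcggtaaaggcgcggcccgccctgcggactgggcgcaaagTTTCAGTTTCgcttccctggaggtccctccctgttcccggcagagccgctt
PARP14: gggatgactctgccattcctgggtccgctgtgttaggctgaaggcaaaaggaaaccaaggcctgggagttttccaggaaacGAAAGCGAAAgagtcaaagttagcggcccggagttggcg
PARP12: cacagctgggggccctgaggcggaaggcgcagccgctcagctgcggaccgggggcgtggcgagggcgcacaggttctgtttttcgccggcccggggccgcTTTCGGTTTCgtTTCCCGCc

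The ISRE began 41 bases before the start in PARP9, 29 in PARP14 and 10 in PARP12. PARP9 has a further RefSeq start upstream, whose promoter held no exact match. The motif was in 3 of the 7 members with a promoter, in 0 of 7 genes of the rest of the family and in 11 of 16 interferon-stimulated genes with a promoter, against 3.57% of all promoters and 3.95% of tested genes with a promoter. PARP10 was not searched. The PARP9 match is the same stretch of chromosome 3, bases 122564332 to 122564341, that was found in the promoter of DTX3L on the other strand. The gamma-activated site motif TTCNNNGAA was found in PARP2 and PARP14 (7.66% of all promoters and 8.56% of tested genes with a promoter), where in PARP14 it ends just upstream of the ISRE. The loose NF-κB-type motif GGGNNNNNCC was in 6 of 7 members, in 58.7% of all promoters and in 80.0% of tested genes with a promoter. In both PARP1 and PARP2 a match to it overlaps the E2F-type sequence.

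PARP9 and PARP14 lie in a cluster of 202917 bases on chromosome 3, with DTX3L and PARP15 between them. PARP15 had 0 to 9 counts per library and did not pass the filter. The nearest tested protein-coding neighbors, chosen after the values were seen, had log2 fold changes of -0.45 (FAM162A), -0.35 (WDR5B) and 0.03 (KPNA1, adjusted p = 0.669 in edgeR's quasi-likelihood test) on the PARP9 side. On the PARP14 side they were 0.28 (HSPBAP1, adjusted p = 0.24), 0.42 (PDIA5) and 0.14 (SEC22A, adjusted p = 0.18, same edgeR test). The 3 tested cluster genes had log2 fold changes above those of all 6 neighbors.

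The interferon-stimulated genes rose along with these members. Of 20 genes in the list, 19 were higher, 0 lower and 1 not called, 14 of them by more than 2-fold, with a median log2 fold change of 1.48. Over all tested genes, 36.2% were higher, and 12.5% were higher by more than 2-fold. The median of the 4 members was 1.49. The highest were GBP1, a guanylate-binding GTPase (log2 fold change 3.82, SE 0.08), RSAD2, the antiviral enzyme viperin (2.27, SE 0.09), and OAS2, which makes the activator of RNase L (2.20, SE 0.06). IRF1 (0.67) and IFIT3 (0.76) were the lowest of those called, and IFIT2, named after its value was seen, was at 43.4 and 41.7 CPM in the group means (log2 fold change -0.06, adjusted p = 0.5 in edgeR's quasi-likelihood test).

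PARP1 and PARP14, the members with the lowest and the highest log2 fold change, were also compared within libraries, where scaling plays no role. The ratio of PARP1 to PARP14 in FPKM was 5.13, 5.25 and 5.84 in controls and 0.524, 0.511 and 0.548 with ILL. PARP1 was thus the more abundant transcript in every control library and the less abundant one in every ILL library. This pair does not stand for all repair and interferon-responsive members, since PARP3 rose by 0.74 and PARP9 by 1.08 on the log2 scale. The change was 10.2-fold, or -3.36 on the log2 scale (two-sided exact permutation test over 3 against 3 libraries, p = 0.1, the smallest this design allows). Both genes were already apart between groups, in opposite directions. The p of their ratio was therefore fixed by those values and adds no separate support.

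PARP4, a large protein of the vault ribonucleoprotein particle, had 142, 138 and 142 CPM in controls and 191, 192 and 184 CPM with ILL. Its spread was narrow in both groups and the increase was 1.34-fold (log2 fold change 0.43, SE 0.05, adjusted p = 5.84e-08 in edgeR's quasi-likelihood test). This was the smallest log2 fold change of the 10 members in size. The annotated gene lies within the antisense pseudogene TPTE2P6, with which reads could be shared if strand was not used.

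The tankyrases rose together and by similar amounts. TNKS had 27.8, 28.5 and 25.3 CPM in controls and 39.7, 36.4 and 39.0 CPM with ILL, a 1.41-fold increase (log2 fold change 0.50, SE 0.08, adjusted p = 2.11e-06 in edgeR's quasi-likelihood test). TNKS2 had 53.7, 47.6 and 51.6 CPM and then 77.0, 70.8 and 72.0 CPM, a 1.44-fold increase (log2 fold change 0.52, SE 0.06, adjusted p = 9.83e-08 in edgeR's quasi-likelihood test). Neither gene overlapped between groups. The ratio of TNKS to TNKS2 in FPKM was 0.322 ± 0.0342 in controls and 0.315 ± 0.00939 with ILL (SD, n = 3), and its libraries overlapped (log2 difference -0.02, two-sided exact permutation test, p = 0.8, smallest possible 0.1).

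Partners of the tankyrases and feedback genes of Wnt signaling gave no single direction. Of 11 tested genes, 5 were higher, 1 lower and 5 not called, with a median log2 fold change of 0.27. Among all tested genes, 36.2% were higher and 36.9% lower. RNF146, the E3 ligase that reads tankyrase products, rose from 17.4 ± 1.53 to 26.9 ± 1.34 CPM (SD, n = 3, log2 fold change 0.63, SE 0.09, adjusted p = 9.9e-07 in edgeR's quasi-likelihood test). GSK3B, the β-catenin kinase, rose by 0.80, LNPEP, a tankyrase-binding aminopeptidase, by 0.42, and APC by 0.27 on the log2 scale. The related ligases RNF43 and ZNRF3, which remove Wnt receptors, differed in sign, with log2 fold changes of 1.66 (from only 0.551 CPM to 1.75 CPM) and -1.01. AXIN2, a common Wnt target, had 7 to 17 counts per library and LGR5 had 0 to 4, and neither was tested.

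In the rest of the PARP family, 4 of 6 tested genes were higher, 0 lower and 2 not called, with a median log2 fold change of 0.51. Of all tested genes, 36.2% were higher and 36.9% lower. TIPARP, a mono-ADP-ribosyltransferase induced by the aryl hydrocarbon receptor, rose from 69.7 ± 1.34 to 154 ± 8.30 CPM (SD, n = 3, log2 fold change 1.15, SE 0.06, adjusted p = 3.89e-15 in edgeR's quasi-likelihood test). PARP8 rose by 0.99 from 4.89 CPM, the antiviral RNA-binding protein ZC3HAV1 by 0.60 and PARP6 by 0.41, all on the log2 scale. PARP11 (0.17, adjusted p = 0.355) and PARP16 (-0.09, adjusted p = 0.695, both from edgeR's quasi-likelihood test) were not called. Over the whole family 12 of 16 tested genes were higher and 2 lower, so PARP1 and PARP2 were the only called decreases among the tested PARP genes.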

How the data were processed

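For each of the 6 libraries, the authors deposited unnormalized counts for 19470 gene symbols and FPKM values. The submitters' processing notes name GRCh38 and DESeq2, while the aligner, counting program, annotation and use of strand are not given in the sources used here. The deposited FPKM are counts over library total and a constant for each gene, read here as its length. That constant was inferred from the same counts and FPKM, rounded to whole bases, and no annotated length was used. With it, 100% of 88055 nonzero values were returned within 0.1%, which shows only that it was shared between libraries.

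Low genes were removed by filterByExpr, TMM scaled the libraries, and ILL was compared with control in 13066 genes by the quasi-likelihood test of edgeR (edgeR 4.0.16, R 4.3.3), adjusted by Benjamini-Hochberg. A gene was called at an adjusted p under 0.05, and separately with a fold change above 2 or under 0.5. CPM are TMM-scaled, and levels between genes were compared in FPKM. With 34282764 to 37758569 counts per library, the biological coefficient of variation shared by all tested genes was 0.0717. At this shared value replicate spread would limit the precision of the members. Their own spread with ILL differed, from a log2 SD of 0.020 (PARP1) to 0.192 (PARP10). The procedure was also run on simulated data in which most genes were unchanged. Most genes were called in the real data, so that run does not show how the scaling performs here. The members and lists were chosen with earlier results of these data known. Named from each list were the 3 genes with the highest and the 3 with the lowest log2 fold change among called genes whose groups did not overlap and whose mean reached 1 CPM, and 10 genes in any case. Listed genes that were not called or not tested, apart from PARG and AXIN2, were named after their values were seen. ADPRS, HPF1 and RIGI are also known by older symbols. Alternatives were limma (limma 3.58.1) on log2(FPKM + 1) or log2(FPKM + 0.1), the Wald test of DESeq2 (DESeq2 1.42.0), its size factors in edgeR, unscaled library sizes, other count filters (none, or 10 counts in all libraries), a replicate block, and omission of single libraries. Promoter sequences are from RefSeq on GRCh38.p14. Some genes that this rule names are not reported here.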

Additional observations from a re-analysis of the deposited data

How the results depend on the processing

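All 10 members kept their direction and their call in each of 15 alternatives, with leave-one-out log2 fold changes of -1.79 to -1.75 for PARP1 and 1.55 to 1.63 for PARP14, and a highest adjusted p of 0.00607 (TNKS). Limma on log2(FPKM + 1) gave 5 members over 2-fold, with PARP9 at 0.95. Limma gave 1591 genes over 2-fold with a pseudocount of 1 and a filter at 1 FPKM (668 higher and 923 lower), 1609 without a filter (680 and 929), and 2156 with a pseudocount of 0.1 and the filter (909 and 1247), against 3120 (1635 and 1485). The pseudocount understates changes of low genes. The median of all genes moved to -0.10 in the fit with 0.1 and to -0.07 with library size only. Library size only, which uses no pseudocount, gave 1488 genes higher and 1649 lower by more than 2-fold. The filtered limma fits called 0 ADP-ribose erasers and co-factors higher, against 3, and 2 were called with library size only, no count filter, DESeq2's Wald test and unfiltered limma, and without control replicate 1, ILL replicate 1 or ILL replicate 3. The filtered limma fits called 3 tankyrase partners higher, against 5, and 2 lower, against 1, and library size only gave 3 lower. The unfiltered limma fit and the fit without ILL replicate 1 each had 2 lower. The TNKS to TNKS2 ratio had leave-one-out log2 differences of -0.086 to 0.059 against -0.024, and was above 0 without control replicate 2. With the ISRE at 1 mismatch, 4 members and 33.0% of all promoters matched. Deviations of genes from their group mean correlated at -0.02 to 0.01 between control and ILL libraries of the same number. Between libraries of different numbers they correlated at -0.01 to 0.03. No sign of pairing by number was seen, though such a check cannot show that samples were not prepared in pairs. The replicate block gave 9437 called genes against 9547 and 10 called members. With 3 libraries per group, ratios cannot reach p under 0.1, and genes under a few CPM have wide errors.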
